A study of Mus musculus with 8 samples.

Results

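B lymphocytes of the mouse heart were picked out of droplet libraries of nuclei, made from the whole hearts of male mice aged 9 weeks. The groups were 4 WT mice (4686, 4909, 5355 and 5356) and 4 Taz-KO mice (4685, 4910, 5300 and 5301), with 1 library per mouse. Taz-KO mice lack Tafazzin, the acyltransferase that remodels the mitochondrial lipid cardiolipin and whose loss causes Barth syndrome. A barcode was selected by its own counts of unique molecular identifiers (UMIs). It had at least 800 UMIs outside mitochondrial genes, and the 8 marker genes Pax5, Bank1, Ms4a1, Cd79a, Cd79b, Ighd, Ighm and Blk together took a share of them at least 15 times their share in the whole library. At least 5 UMIs had to fall on at least 3 of the 8 genes. The same enrichment was at most 1 for the cardiomyocyte genes Ryr2 and Ttn, and at most 2 for the macrophage genes F13a1, Mrc1 and Cd163. The rule kept 558 of the 167504 barcodes with at least 800 UMIs, and these are called B lymphocyte nuclei here.

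B lymphocytes recognize antigen through a surface immunoglobulin of heavy and light chains, which signals through the associated chains Cd79a and Cd79b. Naive follicular B cells carry IgM and IgD together, and B cells that have switched class carry IgG, IgA or IgE instead. Plasma cells secrete antibody and lose most surface markers of the lineage. The heart holds a resident and circulating pool of B cells beside its larger macrophage population.

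The libraries held between 20025456 and 348080773 UMIs. WT mice had 21190 to 29016 barcodes with at least 800 UMIs, Taz-KO 4910 and 5300 had 36308 and 29482, and Taz-KO 4685 and 5301 had 3475 and 3899. In the WT mice and in Taz-KO 4910 and 5300, the barcodes outnumbered the nuclei that the paper states were used, approximately, per library. Not all of these barcodes can therefore be single nuclei. Percentages of barcodes are thus not shares of heart nuclei, and the other barcodes defined below are not all single nuclei. Of 165854 different barcode sequences, 3295 occurred in more than 1 library, among them 24 of the B lymphocytes, and 0 were B lymphocytes in more than 1 library. At least 10 B lymphocytes were found in all 4 WT mice but only in Taz-KO 4910 and 5300, so expression was compared between 4 and 2 mice. Levels are in CPM, the UMIs of a gene as a share of all UMIs outside mitochondrial genes on the usual CPM scale, with counts summed over the B lymphocytes of a mouse or of all mice. "Other barcodes" are all remaining barcodes with at least 800 UMIs, and "ratio" is the pooled CPM in B lymphocytes divided by that in other barcodes.

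The 558 nuclei had a median of 3808.5 UMIs outside mitochondrial genes (lowest 1339, highest 20037) and of 2210 detected genes. The 8 markers received a median of 17 UMIs per nucleus (lowest 5, highest 71). A median of 5 of the 8 markers was detected, 7 nuclei had all 8, and 90 had exactly 3. The enrichment ran from 15.02 to 121, with a median of 29.8. Just inside the limit, at 15 to 17, lay 51 nuclei with a mean of 15.5 marker UMIs on 4.65 markers, and just outside, at 13 to 15, lay 46 barcodes that met the other conditions, with 15.5 marker UMIs on 4.43 markers. Nuclei on the 2 sides of the limit thus had nearly the same marker counts. The enrichment is taken against the own library, so the marker share that sufficed differed between mice. It was 0.210, 0.210, 0.203 and 0.261% of the UMIs in WT 4686, 4909, 5355 and 5356. In Taz-KO 4685, 4910, 5300 and 5301 it was 0.140, 0.185, 0.170 and 0.157%. The cut was thus laxer in every Taz-KO mouse than in every WT mouse, which bears on all comparisons of genotypes. A fixed marker share of 0.3% was tried for the share of B lymphocytes but not for expression.

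The levels of the 8 selecting genes describe the rule and carry no test. Pax5, the transcription factor that holds cells in the B lineage, had 609, 696, 638 and 1221 CPM in WT 4686, 4909, 5355 and 5356 and 658 and 535 CPM in Taz-KO 4910 and 5300. WT 5356 lay far above the other 5 mice. Its pooled level was 795 CPM, against 3.95 CPM in other barcodes, and its ratio of 201 was the highest of all genes with at least 50 UMIs in B lymphocytes. Bank1, a scaffold protein of B cell receptor signalling, was the most abundant of the 8, with 1792, 1823, 1638 and 3254 CPM in the WT and 2340.2 and 1674 CPM in the Taz-KO mice. It was not limited to B lymphocytes, since nuclei selected as macrophages held 540.1 CPM.

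Ighm, the heavy chain of IgM, stood at 407 CPM against 16.9 CPM in other barcodes, and Ighd, the heavy chain of IgD, at 248 against 2.82 CPM. Ms4a1, which encodes CD20, had 172 against 3.58 CPM. The signalling chains Cd79a and Cd79b had 119.9 and 63.1 CPM, against 2.18 and 2.04 CPM. Blk, a Src family kinase, had 158 CPM and was also present in nuclei selected as T lymphocytes, at 41.7 CPM. The 8 genes together therefore mixed very specific transcripts such as Pax5 with broader ones such as Bank1 and Blk.

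**Figure D1:**
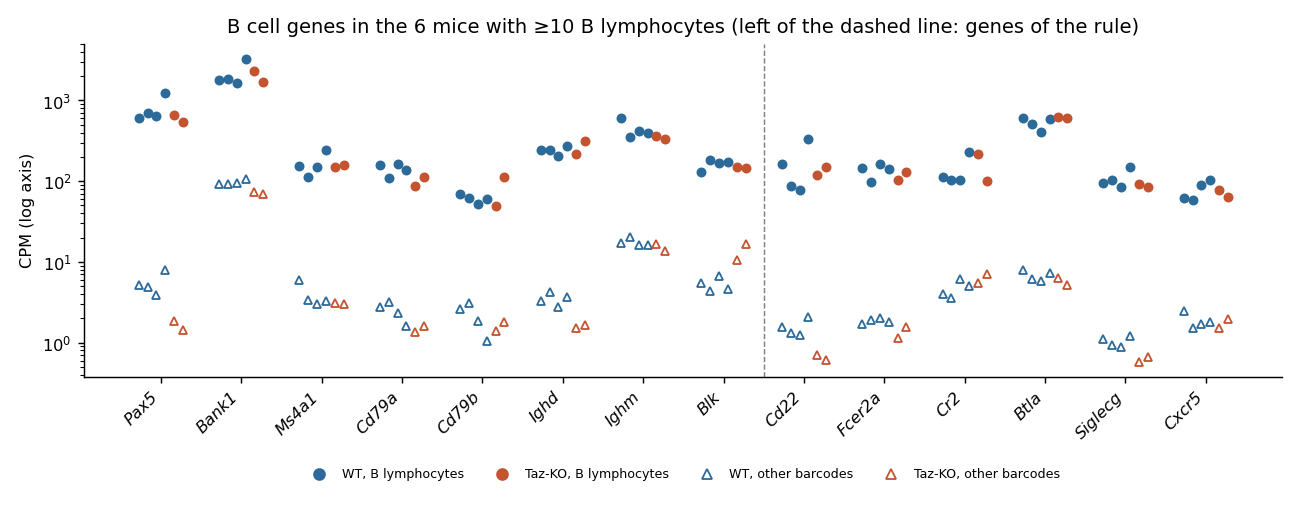
CPM (log axis) of 14 B cell genes in each of the 4 WT and 2 Taz-KO mice with at least 10 B lymphocytes, with circles for B lymphocytes, open triangles for other barcodes, and the 8 selecting genes left of the dashed line. For each gene every circle lies above every triangle, and WT 5356 is the highest circle for Pax5 (1221 CPM) and Bank1 (3254 CPM).

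The cell type label was checked against 20 B lineage genes that the rule did not use. In the B lymphocytes 19 of them had at least 20 UMIs, all 19 were at least 2-fold above other barcodes, and 13 were at least 10-fold above. Over all 11337 genes with at least 20 UMIs, 954 were at least 2-fold and 180 at least 10-fold above. The median ratio was 30.3 for the 19 genes and 1.10 over all genes. The ratio of the summed level of the list lay between 10.8 and 20.2 in the WT mice and between 14.6 and 17.4 in Taz-KO 4910 and 5300. These are descriptions, because the nuclei were chosen by counts of the same libraries.

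Cd22, an inhibitory sialic acid receptor of B cells, had 161, 87.9, 77.4 and 330.2 CPM in the 4 WT mice and 118 and 149.8 CPM in Taz-KO 4910 and 5300. WT 5356 was the highest mouse, and the genotypes overlapped. A Cd22 UMI was seen in 48.7% of B lymphocytes, in 1.596% of T lymphocytes and in 0.648% of macrophages. The median depths of these 3 cell types were 3808.5, 4946.5 and 4313 UMIs, so B lymphocytes were the shallowest of them.

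Btla, an inhibitory receptor of lymphocytes, had 612, 513, 413 and 586 CPM in the WT and 617 and 615 CPM in the Taz-KO mice. Fcer2a, the low-affinity IgE receptor CD23, had 146, 98.8, 161 and 143 CPM in the WT and 104 and 128 CPM in the Taz-KO mice. Cr2, the complement receptor CD21, had 114, 103, 103 and 229 CPM in the WT and 218 and 102 CPM in the Taz-KO mice. The levels of Btla and Fcer2a thus lay within a narrow range, whereas Cr2 was high in 1 mouse of each genotype, WT 5356 and Taz-KO 4910. Among the remaining genes, Siglecg, which restrains B cell receptor signalling, had a ratio of 126, Fcrl1, an Fc receptor-like protein, a ratio of 108, and Cd180, a Toll-like receptor homologue, a ratio of 8.37. Vpreb3 was the member without enough counts, with 6 UMIs.

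The promoters of Cd22 and Ccr6, a chemokine receptor of B cells described further on, are shown because both genes were among the 20 with the highest ratios and each window held a motif of a factor of the B lineage, in capitals. Cd22 held the EBF1 palindrome (TCCC and GGGA with any 2 bases between them), beginning 49 bases before a RefSeq transcript start that lies within the longer Cd22 gene of GENCODE vM21 (chr7:30865402-30880342). Ccr6 held the octamer ATGCAAAT, bound by POU factors, on the opposite strand and beginning 68 bases before the start. Each window runs from 250 bases before to 50 bases after the RefSeq start on GRCm38.p6, at chr7:30878979-30879278 on the minus strand for Cd22 and at chr17:8235793-8236092 on the plus strand for Ccr6.
Cd22: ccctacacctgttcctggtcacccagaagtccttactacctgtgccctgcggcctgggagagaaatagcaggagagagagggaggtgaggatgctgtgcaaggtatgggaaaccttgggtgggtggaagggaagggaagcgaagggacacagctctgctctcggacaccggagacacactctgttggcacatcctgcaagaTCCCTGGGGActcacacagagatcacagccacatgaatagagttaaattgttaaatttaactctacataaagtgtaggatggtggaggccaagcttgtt
Ccr6: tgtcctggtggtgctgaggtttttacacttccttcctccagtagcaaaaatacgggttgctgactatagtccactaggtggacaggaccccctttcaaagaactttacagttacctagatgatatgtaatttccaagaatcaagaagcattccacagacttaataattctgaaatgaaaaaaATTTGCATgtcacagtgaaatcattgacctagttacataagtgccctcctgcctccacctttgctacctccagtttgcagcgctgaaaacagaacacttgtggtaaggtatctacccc

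Both strands were searched in the promoters of the 8 selecting genes, the 20 B lineage genes and the 20 genes of highest ratio, 43 different genes, of which 28 had 34 promoters in the RefSeq table. The palindrome was in 1 of the 34, that of Cd22, and in 0.904% of 32851 promoters of the same length. The octamer was in 2 of the 34, those of Ccr6 and Vpreb3, and in 1.74% of all. A match describes letters in these windows only.

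Transcription factors of the B lineage were expressed at high levels, but many were shared with other cells of the heart. All 22 listed factors had at least 20 UMIs, 18 were at least 2-fold above other barcodes, and 7 at least 10-fold. Pou2af1, a coactivator of octamer-binding factors, had 131 CPM against 1.04 CPM in other barcodes, and Ikzf3, which encodes Aiolos, 574 against 5.99 CPM. Ikzf3 was also found in T lymphocytes, at 181 CPM. Bach2, a repressor that keeps B cells from becoming plasma cells, had 1836 against 161 CPM, and Bcl11a, a zinc finger factor needed for B cell development, 531 against 26.4 CPM. Ebf1, which specifies the B lineage and is also made by stromal cells, was the most abundant at 3335 CPM, but other barcodes held 1027 CPM.

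Of 24 genes that carry the signal of the B cell receptor, 21 were at least 2-fold and 2 at least 10-fold above other barcodes. Prkcb, a protein kinase C isoform of B cells, had 922 against 86.6 CPM. The receptor-proximal kinases Syk, Lyn and Btk had ratios of 7.28, 3.80 and 5.44, and the adaptor Blnk a ratio of 8.83. Most of this pathway was thus enriched less than the surface markers, and Cd81, a widely expressed tetraspanin, had about the same level in both, 175 and 166 CPM.

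Genes of antigen presentation by MHC class II divided in the same way, with 12 of 14 at least 2-fold and 3 at least 10-fold above other barcodes. Cd74, the invariant chain, had 617 against 217 CPM, and the class II chains H2-Aa, H2-Ab1 and H2-Eb1 had ratios of 2.70, 2.35 and 2.97. H2-Ob, a subunit of the H2-O modulator of peptide loading, had 94.6 against 1.84 CPM. Ciita, the transactivator of class II genes, had 157 against 17.1 CPM.

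Receptors that position B cells in lymphoid organs were detected, with 15 of 18 migration genes at least 2-fold and 6 at least 10-fold above other barcodes. Cxcr5, which guides B cells to follicles, had 81.2 against 1.77 CPM. Ccr6 had 26.9, 36.6, 45.1 and 69.9 CPM in the WT and 50.1 and 58.8 CPM in the Taz-KO mice. The genotypes overlapped for Ccr6, and other barcodes held 0.304 CPM. Of 17 survival and costimulation receptors with at least 20 UMIs, 11 were at least 2-fold above other barcodes. Tnfrsf13c, the receptor for the survival factor BAFF, had a ratio of 53.3 and Cd40, which receives T cell help, a ratio of 5.66.

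Immunoglobulin heavy chain transcripts of the selected nuclei were almost all of the unswitched classes. Ighm was detected in 77.4% of the 558 nuclei (exact 95% Clopper-Pearson interval 73.7 to 80.8%) and Ighd in 61.6% (57.5 to 65.7%), against 17.9% and 2.48% of T lymphocytes. Both were seen in 48.4% of nuclei, Ighm alone in 29.0%, Ighd alone in 13.3% and neither in 9.32%. The rule used both genes, so their detection is not independent of it. The 6 switched heavy chain genes, which the rule did not use, had 11 UMIs in 8 nuclei, or 1.43% (0.621 to 2.81%). This share depends on the rule too, because UMIs of Ighm and Ighd counted towards selection. Switched cells without them were harder to select, so their share among B cells of the heart cannot be read from it. All intervals cover counting error only.

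Light chains of both types were found. Igkc, the kappa constant region, had 375 UMIs in 188 nuclei (33.7%), and the lambda constant regions Iglc1, Iglc2 and Iglc3 together had 427 UMIs in 231 nuclei (41.4%). Kappa alone was seen in 84 nuclei, lambda alone in 127, both in 104 and neither in 243. Igkc was also detected in 5.32% of T lymphocytes and 5.37% of other barcodes, and Iglc2, the most abundant lambda gene, in 1.95 and 1.0003%, and the part of such background in nuclei with both chains was not tested. Lambda took 36.2, 56.8, 36.2 and 62.8% of the constant region UMIs in the WT mice 4686, 4909, 5355 and 5356, and 58.2 and 64.0% in Taz-KO 4910 and 5300. WT 4686 and 5355 were thus below the other 4 mice, and the genotypes overlapped. The lambda share was 53.2% over all B lymphocytes and 24.96% in other barcodes. Iglc2 and Iglc3 are close copies, so the division of reads between them is uncertain.

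Genes listed for B cell subsets were compared with other barcodes. The ratio also depends on how much the other barcodes hold of a gene, so it cannot assign the nuclei to a subset. All 6 follicular genes, among them Fcer2a, Ighd, Cr2, Cxcr5 and the lymph node homing receptor Ccr7, were at least 10-fold above other barcodes, with a median ratio of 52.9. Ighd was used by the rule. Of 6 marginal zone genes with at least 20 UMIs, 3 were at least 2-fold above, with a median ratio of 2.84. They were Cr2, shared with the follicular list, the Notch regulator Dtx1 (4.48) and Mzb1 (7.58), a chaperone of immunoglobulin assembly, whereas the tetraspanin Cd9 and the sphingosine receptor S1pr3 had ratios of 1.05 and 1.20. Of 5 B-1 cell genes 0 were 2-fold above, and Cd5, the surface marker of B-1a cells, had 4 UMIs. Of 6 age-associated and memory B cell genes with at least 20 UMIs, 2 were at least 10-fold above, with a median ratio of 1.52.

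Genes of activated, secreting and immature cells had lower ratios than the follicular genes. Of 8 germinal centre and cycling genes 1 was 2-fold above, the signalling regulator Rgs13 at a ratio of 2.35. Mki67, a marker of proliferation, had 14.2 against 10.2 CPM. Of 5 plasma cell genes with at least 20 UMIs, 2 were at least 2-fold above, Mzb1 and the transcription factor Irf4 (4.21), and the median ratio was 1.72. The regulators Xbp1 and Prdm1 had ratios of 1.12 and 1.23, the joining chain gene Jchain had 7 UMIs, and Derl3 and Tnfrsf17 had 0. Among B cell precursor genes 4 of 9 had 0 UMIs, and the recombinase gene Rag1 had 1. At these counts low expression of such genes was not detectable.

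**Figure D2:**
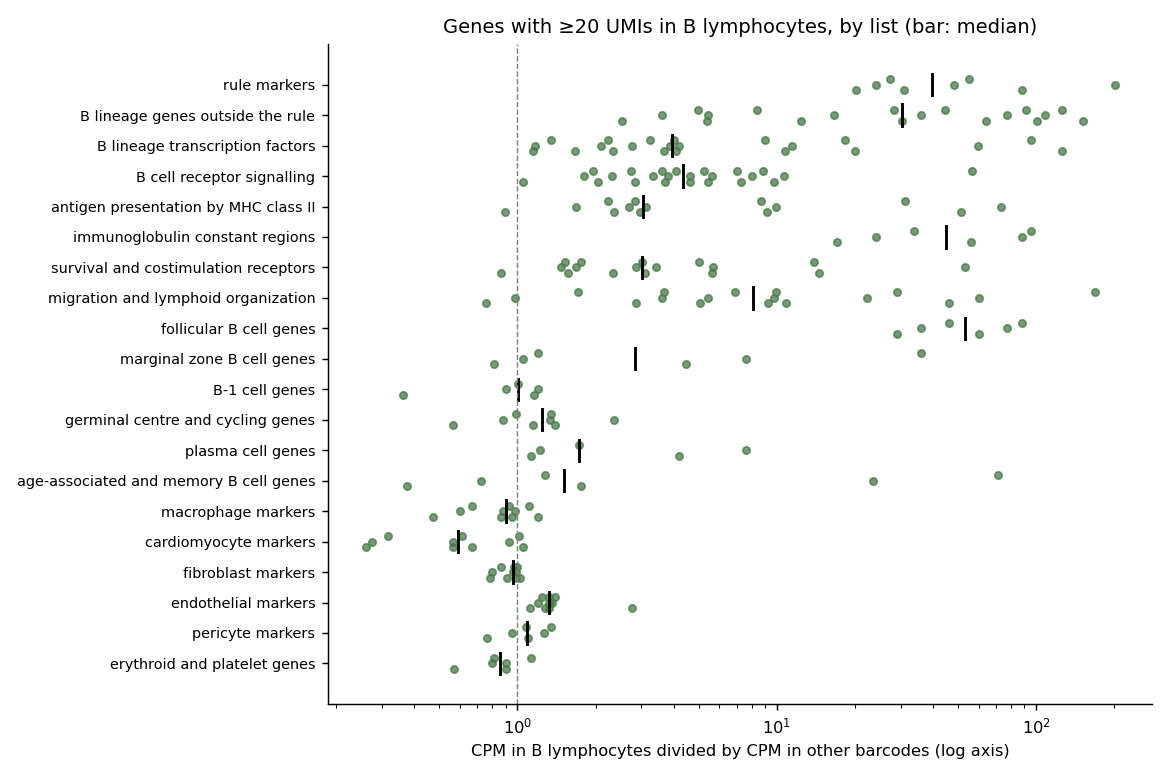
Ratio of CPM in B lymphocytes to that in other barcodes (log axis) for genes with at least 20 UMIs in B lymphocytes, 1 point per gene, grouped by list, with a bar at the median of each list. The medians are 52.9 for follicular genes and 30.3 for B lineage genes outside the rule, against 0.964 for fibroblast and 0.588 for cardiomyocyte markers, which include Ryr2 and Ttn of the rule.

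Ranked by ratio, the 20 leading genes held many that no list contained. Il9r, the interleukin 9 receptor, followed Pax5 with a ratio of 193, and Il5ra, the interleukin 5 receptor, had a ratio of 146. The ranking pools mice, and WT 5356 and Taz-KO 4910 gave 182 and 185 of the 558 nuclei. Il9r was uneven between mice, with 11.9, 22.0 and 6.45 CPM in WT 4686, 4909 and 5355 against 80.3 CPM in WT 5356. The orexin receptor gene Hcrtr2 and the calcium channel gene Cacna1i had ratios of 131 and 118. The other members, in order of ratio, included Olfr164 (179), Gm12462 (178), 2010309G21Rik (170.1), 1700027J07Rik (161), Gm43388 (160.4), Gm30211 (142), Gm47782 (99.5) and Clec2g (96.0).

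Several of these lie beside immunoglobulin genes or Pax5 in the GENCODE vM21 annotation of GRCm38. Olfr164 (chr16:19284104-19314064), an olfactory receptor gene, the antisense gene 2010309G21Rik (chr16:19051367-19106749) and the lincRNA Gm43388 (chr16:19212660-19236776) were within 100 kb of the lambda light chain locus (chr16:19061618-19260859). The lincRNA Gm30211 (chr6:70719074-70740554) spans the kappa constant region. Gm12462 (chr4:44664415-44685347) is antisense within Pax5 (chr4:44524757-44710487), and 2010309G21Rik overlaps Iglc3, so the assignment of reads within these pairs is uncertain. The 3 genes of the lambda locus were detected in 7.71, 29.6 and 45.2% of B lymphocytes, and Gm30211 in 42.1%.

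Genes of most other cell types were present in the B lymphocytes at about the level of the other barcodes. None of 10 fibroblast genes was 2-fold above, and their median ratio was 0.964, against 1.32 for 10 endothelial genes, 1.09 for 6 pericyte genes and 0.857 for 6 erythroid and platelet genes. These ratios pool the mice. Within single mice, the summed fibroblast level had a ratio of 0.998 to 1.14 in the WT and 1.27 to 1.35 in the 2 Taz-KO mice. The genotypes thus did not overlap for fibroblast genes, but did for the endothelial, pericyte and erythroid and platelet lists. Non-overlap was not particular to fibroblast genes. The B-1 cell list had 0.940 to 1.11 in the WT and 1.21 to 1.32 in the Taz-KO mice. The age-associated and memory list had 0.657 to 0.695 and 0.708 to 0.787, and dendritic cell markers had 0.992 to 1.45 and 0.730 to 0.971. The source of the fibroblast difference was not tested. Without Ryr2 and Ttn, the other 8 cardiomyocyte genes had a median ratio of 0.639, 1 of them was at least 2-fold lower, and their summed level was 10001 against 14808 CPM. Myl2 and Tnni3, components of the sarcomere, had ratios of 0.928 and 1.01, whereas Ryr2 and Ttn, which the rule limited, had 0.274 and 0.317. The 14 T cell markers together had 68.6 against 34.3 CPM, Skap1 and Lef1 were the 2 with at least 20 UMIs, and Trbc2 had 0. An enrichment above 2 of fibroblast, endothelial, pericyte or T cell markers was found in 238 of the 558 nuclei, and 4 also met the T lymphocyte rule. The limit was passed by 34 nuclei for fibroblast, 100 for endothelial, 55 for pericyte and 93 for T cell markers. T cell markers are so rare that 1 UMI passed it at the depth of most nuclei. How many other barcodes passed it was not counted. The 238 are called high in genes of other cell types below by this limit only. No doublet caller was run, and the shares and the test between genotypes, but not the comparison of that test with other barcodes, were repeated without the 238 nuclei. Mitochondrial genes took 17.03 to 32.3% of the UMIs of B lymphocytes in the 6 mice, against 12.9 to 29.0% in other barcodes.

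The share of B lymphocytes was compared to ask whether Tafazzin loss changed their number. WT 4686, 4909, 5355 and 5356 had 54, 41, 28 and 182 B lymphocytes, or 0.239, 0.141, 0.130 and 0.859% of barcodes. Taz-KO 4685, 4910, 5300 and 5301 had 2, 185, 63 and 3, or 0.0576, 0.510, 0.214 and 0.0769%. WT 5356 was the highest of all mice, and the genotypes overlapped. The exact 95% intervals of WT 5356 (0.739 to 0.992%) and Taz-KO 4910 (0.439 to 0.588%) did not overlap those of the other 6 mice, so mice of 1 genotype differed by more than counting error. The mean was 0.342% ± 0.348 (SD, n = 4) for the WT group and 0.214% ± 0.209 (SD, n = 4) for the Taz-KO group, with p = 0.543 in a two-sided exact permutation test (adjusted p = 0.724 over 4 such measures). With 4 against 4 mice the smallest p this test allows is 0.0286.

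T lymphocytes, selected by 10 T cell genes in the same way, made up 0.210 to 0.599% of barcodes in WT and 0.0863 to 0.427% in Taz-KO mice. Macrophages made up 2.81 to 6.69% and 0.921 to 8.47%. There were 0.667, 0.672, 0.560 and 1.43 B lymphocytes per T lymphocyte in the WT mice and 0.667, 1.19, 0.829 and 0.273 in the Taz-KO mice. The genotypes overlapped in all 3 measures, with unadjusted p of 0.486, 0.457 and 0.771 in the exact permutation test, each for 4 against 4 mice. The difference in B lymphocytes changed sign without WT 5356, to a mean 0.0443 percentage points higher in Taz-KO mice.

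**Figure D3:**
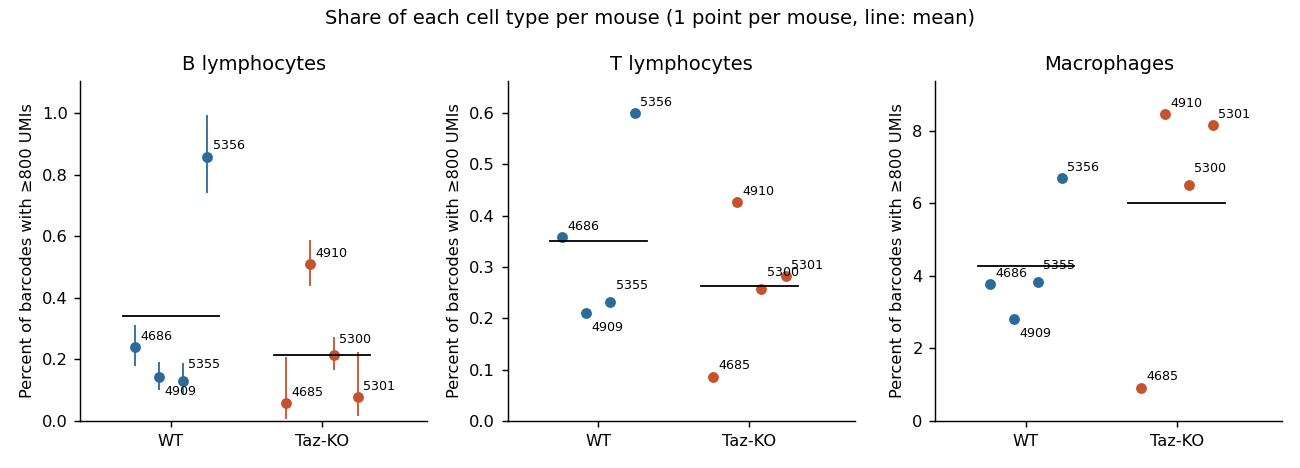
Percent of barcodes with at least 800 UMIs selected as B lymphocytes, T lymphocytes and macrophages, 1 point per mouse with its number, in 4 WT and 4 Taz-KO mice, with a line at each mean and exact 95% intervals for B lymphocytes. WT 5356 (0.859%) and Taz-KO 4910 (0.510%) lie above the other mice for B lymphocytes, and the genotypes overlap in each panel.

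Taz itself, on chromosome X (chrX:74281912-74290151), had only 68 UMIs in all B lymphocytes. Its level was 17.9, 36.6, 32.2 and 26.8 CPM in the WT and 29.0 and 16.05 CPM in Taz-KO 4910 and 5300, which overlapped, and it was below the count filter of the test. In other barcodes it was 41.2, 42.0, 41.7 and 40.9 CPM in the WT and 31.5 and 22.7 CPM in the 2 Taz-KO mice, which did not overlap, with a log2 difference of -0.68 (adjusted p = 0.0873 by edgeR). The gene was thus still counted in the Taz-KO libraries, and the test of the B lymphocytes gives no check of the label.

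To ask which genes differed with genotype, UMI counts of the B lymphocytes were summed per mouse and 2 Taz-KO were set against 4 WT mice. Of 6951 genes tested, 6 passed an adjusted p of 0.05 (0.0863% of those tested), all higher in Taz-KO, and 313 had an unadjusted p below 0.05. Adjusted p-values here come from edgeR (quasi-likelihood, Benjamini-Hochberg over all genes tested). Tenm4, Gdf15, Cyb5r1 and Vmn2r3 were so low in WT that they reached the count filter through the Taz-KO mice, so the direction of the 6 was in part set by the filter. With no filter 64 genes passed, 54 higher and 10 lower in Taz-KO. All 6 genes had less than 2 times the CPM of other barcodes in B lymphocytes, as did 6355 of the 6951 genes tested. All 6 moved the same way in other barcodes, 5 of them at an adjusted p below 0.05. How many of all genes tested did so was not counted, so these 2 counts are a description.

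Tenm4, a teneurin transmembrane protein, had 8.96, 3.66, 12.9 and 26.8 CPM in the B lymphocytes of the WT mice and 183 and 203 CPM in those of Taz-KO 4910 and 5300. In other barcodes it had 12.2, 11.4, 10.8 and 9.40 CPM and 901 and 565 CPM. The genotypes did not overlap in either compartment. The log2 difference in B lymphocytes was 3.58 ± 0.42 (SE, adjusted p = 0.00662), and the difference between the effects in B lymphocytes and in other barcodes was -2.58 (adjusted p = 6.31e-07, edgeR). This rests on 24 UMIs in the WT mice, and the ratios overlapped, at 0.732, 0.322, 1.19 and 2.85 in the WT and 0.203 and 0.360 in the Taz-KO mice.

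Acta1, the skeletal muscle alpha-actin, had 23.9, 47.6, 109.6 and 16.4 CPM in WT and 363 and 332 CPM in Taz-KO B lymphocytes, and 24.6, 44.3, 88.6 and 11.1 against 243 and 275 CPM in other barcodes. Levels in the 2 compartments were of the same size, and the log2 difference in B lymphocytes was 3.09 ± 0.47 (SE, adjusted p = 0.0253). Enah, a regulator of actin filaments, had 68.7, 65.9, 77.4 and 78.8 CPM in WT and 206 and 267 CPM in Taz-KO B lymphocytes, 1.65 ± 0.26 higher on the log2 scale (SE, adjusted p = 0.0253). Cyb5r1, a cytochrome b5 reductase, had 8.96, 14.6, 6.45 and 10.4 CPM in WT and 67.9 and 90.9 CPM in Taz-KO B lymphocytes, 2.83 ± 0.44 higher (SE, adjusted p = 0.0253).

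Gdf15, a stress-induced cytokine, and Vmn2r3, a vomeronasal receptor gene, had 0 UMIs in the B lymphocytes of the 4 WT mice. Gdf15 had 62.4 and 80.2 CPM in Taz-KO 4910 and 5300, at least 31.3-fold higher when the WT mice together are set to a floor of 3 counts. Vmn2r3 had 51.2 and 123 CPM, at least 30.4-fold higher by the same floor. In other barcodes of the 2 Taz-KO mice, Gdf15 reached 43.6 and 65.2 CPM and Vmn2r3 124 and 113 CPM, against 0.635, 0.878, 1.56 and 0.489 CPM and 0.142, 0.143, 0.329 and 0.168 CPM in WT. Both genes were thus higher in Taz-KO than in WT mice in both compartments, and whether their UMIs came from the B lymphocyte nuclei was not tested. The calls depended on the nuclei and mice used. With the 238 nuclei high in genes of other cell types left out only Tenm4 passed, and without WT 4686 or without Taz-KO 4910 edgeR called 0 genes, with 266 and 399 at an unadjusted p below 0.05. With 0.2 of the UMIs of each mouse subtracted in the proportions of its other barcodes, edgeR also called 0 genes, with 206 at an unadjusted p below 0.05. The log2 difference of Acta1 was 2.89 without the 238 nuclei, 2.84 without WT 4686 and 3.12 after the subtraction, against 3.09 in the main fit. That of Cyb5r1 was 3.01, 2.77 and 2.96, against 2.83. With 0.5 of the UMIs subtracted the 2 values were 3.19 and 3.53. Both genes had levels in B lymphocytes near those in other barcodes, in whose proportions the counts were subtracted. The folds after the subtraction therefore cannot tell background from UMIs of the nuclei. Tenm4 and Vmn2r3 were not tested after the subtraction.

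**Figure D4:**
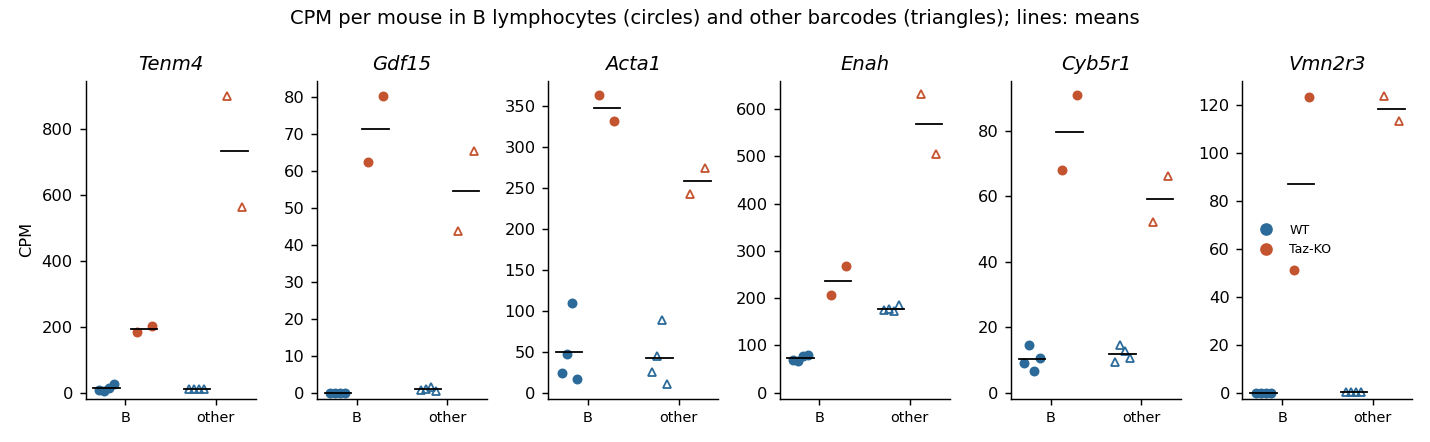
CPM per mouse of the 6 genes that passed an adjusted p of 0.05, in B lymphocytes (circles) and other barcodes (open triangles) of 4 WT and 2 Taz-KO mice, each panel with its own linear axis and lines at the means. Both Taz-KO mice lie above all WT mice in every panel and compartment, and Tenm4 is higher in other barcodes of Taz-KO mice (901 and 565 CPM) than in their B lymphocytes (183 and 203 CPM).

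Without the 8 selecting genes, the B cell lists held 128 genes, of which 102 were tested between genotypes. By edgeR 0 passed and 3 had an unadjusted p below 0.05, and by DESeq2 0 passed and 2 did, beside 0.0863% and 313 of all 6951 genes by edgeR. The 3 genes were Bcl6, a repressor of the germinal centre program, the lymphocyte PI3-kinase gene Pik3cd, and Igkc, with log2 differences of -0.94, -0.82 and -1.12 and adjusted p of 0.981, 0.779 and 0.959. Over the 102 genes 20 were above 0 (19.6%, against 47.4% of all genes tested), and the median log2 difference was -0.27, against -0.02 over all genes. B cell lists were also lower in the other barcodes of the Taz-KO mice. There the median was -0.41 for B lineage genes outside the rule and -0.37 for the transcription factors, against -0.08 over all genes. It was -0.16 for migration genes and -0.58 for follicular genes. Levels in other barcodes depend on the rule, whose cut was laxer in every Taz-KO mouse. At an enrichment minimum of 10, WT mice had 0.336, 0.224, 0.172 and 1.03% B lymphocytes, against 0.239, 0.141, 0.130 and 0.859% here. Taz-KO 4910 and 5300 had 0.543 and 0.234%, against 0.510 and 0.214%. The barcodes gained by the lower minimum counted as other barcodes here. Their part in the lower levels was not tested, nor was where the shift arose. In B lymphocytes without WT 5356, 39 of 97 were above 0 (40.2%, against 49.7%), with a median of -0.10, so the shift was smaller. In that fit by edgeR, 1 of the 97 passed and 8 had an unadjusted p below 0.05, beside 56 and 437 of 6459 genes. Without WT 5356 the medians of the separate lists moved towards 0, from -0.27 to -0.03 for B lineage genes outside the rule and from -0.32 to -0.12 for the transcription factors. Of the 20 genes of highest ratio 18 were tested and 0 passed, 1 of them at an unadjusted p below 0.05.

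Genes of the integrated stress response, which reprograms amino acid and one-carbon metabolism under cellular stress, had 6 of 20 members above the count filter, of which 1, Gdf15, passed the test. Members such as Gdf15 and Mthfd2, a mitochondrial folate enzyme, reached the filter through the Taz-KO mice, so no direction is read from the 6. Mthfd2 had a log2 difference of 2.45 (adjusted p = 0.177), and Atf4, the transcription factor of the response, of 1.64 (adjusted p = 0.219). The summed level of the 20 genes was 238 to 353 CPM in WT and 887 to 1000.2 CPM in Taz-KO B lymphocytes. In other barcodes it was 222 to 309 CPM and 816 to 1055 CPM. The sum includes Gdf15 and Mthfd2, and the lists were chosen with earlier results of these data known, so it is a description. Of 5 erythroid and platelet genes tested 0 passed, but 4 were lower at an unadjusted p below 0.05 (112 of 6951 over all genes), 3 passed with no count filter and 2 without WT 5356, with the hemoglobin gene Hbb-bs at -1.43 (adjusted p = 0.389) and a median of -1.33 over the 5, against -0.84 in other barcodes.

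The difference between the genotype effects in B lymphocytes and in other barcodes was tested with the mouse as a term. Of 21531 genes, 34 passed (0.158%), 23 with a higher and 11 with a lower Taz-KO effect in B lymphocytes. Of the 34, 28 had a ratio below 2, against 18993 of the 21531 genes tested. Pax5, Blk and Ighd, which selected the nuclei, were among the 34, so their values are given as a description. The ratio of Pax5 was 116, 143, 165 and 156 in the WT mice and 352 and 374 in Taz-KO 4910 and 5300. Its log2 difference was -0.43 in B lymphocytes and -1.80 in other barcodes. The ratio of Blk was 24.3, 41.8, 24.8 and 37.8 in the WT and 14.1 and 8.61 in the Taz-KO mice. Since the rule used both genes, no difference between genotypes is read from these ratios.

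Among genes that the rule did not use, Kcnq5, a potassium channel gene, had ratios of 13.5, 11.5, 10.6 and 14.8 in the WT and 5.40 and 4.53 in the Taz-KO mice. The difference between compartments was -1.29 ± 0.20 on the log2 scale (SE, adjusted p = 1.82e-06, edgeR), from a log2 difference of -0.34 in B lymphocytes and 0.94 in other barcodes. Slc38a1, a glutamine transporter, had ratios of 6.56, 6.64, 7.92 and 7.26 in the WT and 3.13 and 2.47 in the Taz-KO mice, a difference of -1.25 ± 0.27 (SE, adjusted p = 0.00411, edgeR). The log2 differences of the 2 genes were thus 0.94 and 1.27 in other barcodes, and -0.34 and 0.01 in B lymphocytes. Kcnq5 remained past the threshold in all 6 fits that left out a mouse, and Slc38a1 in 4 of 6.

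Levels of several B cell genes differed widely among the WT mice. WT 5356, which had the most B lymphocytes of the WT mice, was highest of them for Pax5, Bank1, Cr2 and Cd22. Hcrtr2 had 122, 80.5, 96.7 and 25.3 CPM in the 4 WT mice and 26.7 and 37.4 CPM in the Taz-KO mice. Il9r had 11.9, 22.0, 6.45 and 80.3 CPM and 69.1 and 53.5 CPM. WT 5356 lay on the Taz-KO side for both genes. Igkc had 289.8, 117, 329 and 119 CPM in the WT and 96.9 and 96.3 CPM in the Taz-KO mice, where WT 4909 and 5356 were near the Taz-KO mice. Cacna1e, a calcium channel gene chosen after its values were seen, had 111, 165, 155 and 534 CPM in the WT and 348 and 251 CPM in the Taz-KO mice.

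Without WT 5356, 56 genes passed the test between genotypes, 40 higher and 16 lower in Taz-KO. Of these, 52 had a ratio below 2 and 4 a ratio of at least 10, against 6355 and 122 of the 6951 genes tested with all mice. The 4 were Hcrtr2 (-1.79 on the log2 scale, adjusted p = 0.00378), Cacna1e (1.11, adjusted p = 0.00590), Il9r (2.12, adjusted p = 0.00828) and Igkc (-1.32, adjusted p = 0.0159), by edgeR. With all 6 mice their log2 differences were -1.38, 0.26, 0.73 and -1.12, and 0 of the 4 passed. Their calls therefore rested on leaving out a single mouse.

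**Figure D5:**
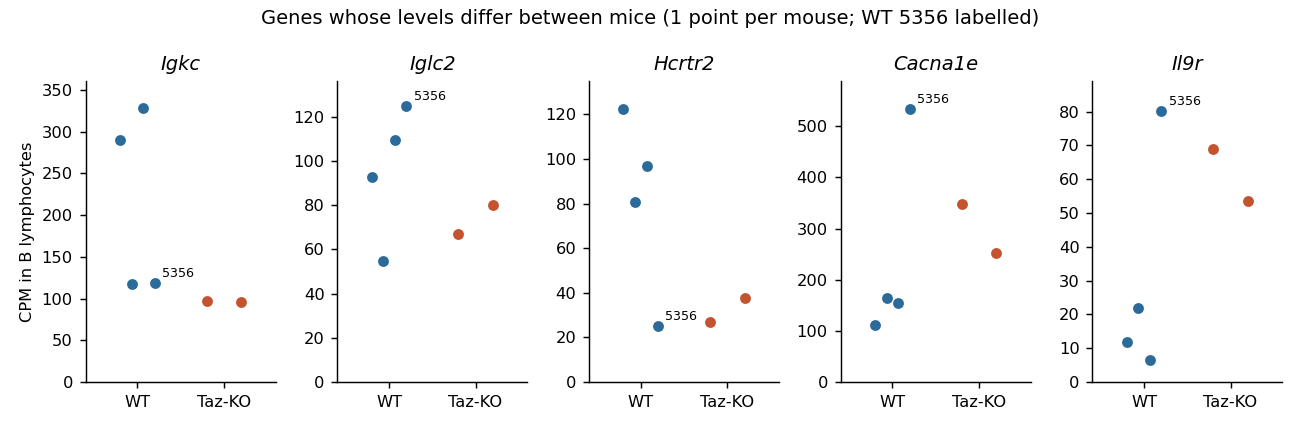
CPM in B lymphocytes of Igkc, Iglc2, Hcrtr2, Cacna1e and Il9r, 1 point per mouse for 4 WT and 2 Taz-KO mice, with WT 5356 labelled. WT 5356 lies apart from the other WT mice for Hcrtr2 (25.3 CPM), Cacna1e (534 CPM) and Il9r (80.3 CPM), nearer to the Taz-KO mice.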

How the data were processed

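Nuclei of whole hearts from 4 WT and 4 Taz-KO mice were profiled with 10x 3' chemistry, and the deposited matrices hold UMI counts that were not normalized. The submitters' notes name Cell Ranger 6.0.1 and mm10, and intronic reads were included. The study corrected ambient RNA, filtered doublets and tested nuclei with MAST. Here each mouse was 1 replicate, with the counts of its nuclei added up. The members and gene lists were chosen with earlier results of these data known.

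B lymphocytes were selected by the rule given in the results. T lymphocytes and macrophages were selected likewise from 10 and 3 genes, the latter with an enrichment of at least 5. The 13 mitochondrial genes were left out of levels, library sizes and tests. The matrices were used as deposited, with no ambient correction and no doublet caller. Mice with at least 10 B lymphocytes were tested with the edgeR 4.0.16 quasi-likelihood test (TMM, filterByExpr, R 4.3.3, limma 3.58.1), also with the mouse as a term against the other barcodes of its library. p-values were adjusted by Benjamini-Hochberg over all genes tested. Shares were compared by exact permutation tests (Python 3.11.15, scipy 1.17.1, numpy 2.4.6, pandas 2.3.3). DESeq2 1.42.0, other filters, rule limits, background subtraction and leaving out each mouse were alternatives. The scripts were tested on simulated data.

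Named genes are the 8 of the rule, Taz, genes of the fixed lists, the 20 highest ratios among genes with at least 50 UMIs, and at most 10 genes per direction that passed a test with no overlap between genotypes. Cacna1e was added after its values were seen. Library depths were 20025456 to 348080773 UMIs. Some members of the lists are counted but not reported here by name.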

Additional observations from a re-analysis of the deposited data

Results flagged for a closer look

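In 5 of 28 groups checked, the highest WT mouse stood apart from the other WT mice, and in all 5 it was WT 5356. Chance alone sets a sample apart in about 1 in 20 groups, but the 5 measures are not independent of each other or of the rule, so their number is no support. Pax5 and Bank1 selected the nuclei, the smallest marker share that sufficed was 0.261% in WT 5356 against 0.203 to 0.210% in the other WT mice, and 2 measures share the count of B lymphocytes. Its share of B lymphocytes was 0.859% of barcodes, and it had 1.43 B lymphocytes per T lymphocyte. In its B lymphocytes Pax5 was at 1221 CPM, Bank1 at 3254 CPM and Cr2 at 229 CPM.

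The Taz-KO effect in B lymphocytes differed from that in other barcodes for 34 genes at an adjusted p below 0.05 (edgeR). For 27 of them the ratios did not overlap between genotypes. The share of all 21531 genes tested without such overlap was not counted, so the non-overlap chose the names and is no support. Of the 27, 18 are named here, at most 10 in each direction. The Taz-KO effect was higher in B lymphocytes for Otud1 (4.70 on the log2 scale, on 14 UMIs), Aldh1a2 (2.19), Nrxn3 (2.19), Adgrg6 (2.15), Itga8 (1.86), Myh11 (1.84), Pax5 (1.38), Fhl1 (1.33), Fgf12 (1.32) and Pknox2 (1.31). It was lower for Ppm1e (-1.55), D10Wsu102e (-1.48), Blk (-1.41), Kcnq5 (-1.29), Lnx1 (-1.29), Slc38a1 (-1.25), Pvt1 (-1.23) and Lrrc4 (-1.07). These values are not genotype effects in B lymphocytes alone. The log2 differences of Ppm1e, Lnx1, Pvt1 and Lrrc4 were 0.05, -0.12, -0.04 and 0.61 in B lymphocytes. In other barcodes they were 1.48, 1.13, 1.17 and 1.64. In the same order of compartments, D10Wsu102e had -1.12 and 0.34, Pknox2 0.37 and -0.87, and Itga8 1.99 and 0.11. Pax5 and Blk belong to the rule that selected the nuclei, so their values are a description. Fibroblast markers had a median of 0.39 in this test, against 0.05 over all genes, and 0 of 10 passed. Ratios of their summed level were 0.998 to 1.14 in the WT and 1.27 to 1.35 in the Taz-KO mice, without overlap. Those of the B-1 cell, age-associated and memory, and dendritic cell lists did not overlap either. The medians of endothelial, cardiomyocyte and pericyte markers in this test were 0.16, 0.21 and -0.0045, and the ratios of their summed levels overlapped. The test was not repeated without the 238 nuclei, and whether RNA of other cell types entered the named values was not tested. Of the 16 genes outside the rule, only Kcnq5 and Slc38a1 kept the call with DESeq2. Several values rested on 1 mouse. Without Taz-KO 4910 they were 1.20 for Aldh1a2, 1.07 for Itga8, 0.96 for Myh11, 0.61 for Fgf12, -2.10 for Lnx1 and 3.47 for Nrxn3, of which only Nrxn3 passed. Nrxn3 was 1.058 without Taz-KO 5300 and did not pass. Otud1 had 0 UMIs in the B lymphocytes of WT 4909, 5355 and 5356, so its fitted value is no bound, and it did not pass without WT 4686.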

How the results depend on the processing

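The difference in the share of B lymphocytes (Taz-KO minus WT, -0.128 percentage points) reversed to 0.0193 without the 2 libraries of few barcodes and to 0.0443 without WT 5356, and ranged from -0.226 to 0.0443 with each mouse left out. It passed the threshold in none of the 19 alternatives. Those that left out a mouse or the 2 libraries of few barcodes could not pass. Too few mice remained for the exact permutation test to reach 0.05. The 6 genes called between genotypes became 8 with DESeq2, 64 (54 higher and 10 lower) with no filter on low counts, 1 with the nuclei high in genes of other cell types left out, and 0 with the thresholds of the study, an enrichment minimum of 25, or 0.2 or 0.5 of the UMIs subtracted as library background (edgeR, 313, 155, 206 and 105 genes at an unadjusted p below 0.05). With 1 mouse left out the count ranged from 0 to 56, with 0 without WT 4686 or Taz-KO 4910, 4 without WT 4909, 1 without WT 5355, 56 without WT 5356 and 3 without Taz-KO 5300. A group reduced to 1 mouse was assumed to vary like the other. With every mouse that had a B lymphocyte, 6 genes passed, of which 1, Acta1, was shared. The 34 genes whose Taz-KO effect differed between compartments became 7 with DESeq2 and ranged from 5 to 43 with each mouse left out, with 20 without WT 4909 or WT 5356 and 5 without Taz-KO 4910. The cause of these changes was not tested. Kcnq5 passed in all 6 such fits. The fixed marker share of 0.3% was added after seeing the data. No paired analysis was possible because the genotypes share no mouse number and no label gives a litter or batch, and the mouse was a term only in the comparison of B lymphocytes with other barcodes. With 2 Taz-KO mice and 155097 to 897773 summed UMIs per mouse, the median standard error was 0.37 on the log2 scale, which limits what can be detected.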
